A study of Mus musculus with 4 samples.

Results

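The nuclear genes for the subunits of the mitochondrial respiratory chain were examined for occupancy by Eya1, a transcriptional coactivator required for the maintenance of nephron progenitors. Members were chosen by symbol from the GENCODE M21 annotation of mm10, as nuclear protein-coding genes named Nduf (followed by a, b, c, s or v and a digit), Sdha to Sdhd, Uqcr, Cox4 to Cox8 and Atp5. The rule found 85 of 21938 genes, which carry 84 symbols because Atp5o has a second annotated entry. They comprise 37 genes of complex I, 4 of complex II, 8 of complex III, 18 of complex IV and 18 of complex V. A few of them are members by name alone. Atp5s encodes a coupling factor and Cox7a2l a factor that joins complexes into supercomplexes, while Ndufa4 was grouped by its name with complex I.

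Chromatin was from kidneys of E13.5 embryos carrying the Eya1 HA-FLAG knockin allele, with C57BL/6J and a second inbred strain in their mixed background, and 80 kidneys were pooled for each assay. All 4 samples share this genotype, tissue and age. They are 2 anti-FLAG Eya1 ChIP-seq replicates, 1 input and 1 IgG control, of which only the Eya1 replicates have a peak list that was analysed here. Whole kidneys were used, so the cells in which a promoter was occupied cannot be told apart. The 2 lists hold 8452 peaks, of which replicate 1 has 50.6%, given as positions without a score, and the read depth behind them is unknown. A gene was counted as occupied when a peak interval lay within 1 kb of any of its annotated transcription start sites (TSSs). The study has 1 group of 2 samples, so no test over samples was possible, and all comparisons below are descriptions. Exact (Clopper-Pearson) 95% intervals on shares of genes cover counting error over genes only.

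The respiratory chain passes electrons from NADH through complex I, or from succinate through complex II, to ubiquinone, then through complex III and cytochrome c to complex IV, which reduces oxygen. Proton pumping by complexes I, III and IV drives ATP synthesis by complex V. Most subunits are encoded in the nucleus, and the proximal promoters of many of these genes are CpG-rich and known for binding sites of NRF1 and of ETS factors such as GABP. Kidney tubules come to depend on this pathway, whereas nephron progenitors are known to rely strongly on glycolysis.

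The peaks of replicate 2 were the narrower ones, a trait that depends on peak calling and does not measure how precisely Eya1 was located. Of the 21 replicate 2 peaks at members, 20 had a midpoint downstream of the main TSS. Shown here are the 6 member peaks of at most 300 bp in replicate 2 that lay in introns and touched no exon, read from the GRCm38.p6 reference along the direction of transcription, with CpG dinucleotides in capitals. They are the core complex I genes Ndufs7 (chr10:80249622-80249745, + strand) and Ndufv2 (chr17:66101241-66101408, - strand), the accessory complex I gene Ndufb3 (chr1:58586673-58586789, + strand), the complex IV gene Cox5a (chr9:57521457-57521653, + strand), the ATP synthase c-ring gene Atp5g2 (chr15:102670754-102671014, - strand) and Atp5h, the gene of the d subunit of the ATP synthase stalk (chr11:115419697-115419813, - strand).
Ndufs7: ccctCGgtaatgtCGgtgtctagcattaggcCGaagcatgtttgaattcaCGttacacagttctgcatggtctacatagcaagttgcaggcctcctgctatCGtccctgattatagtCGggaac
Ndufv2: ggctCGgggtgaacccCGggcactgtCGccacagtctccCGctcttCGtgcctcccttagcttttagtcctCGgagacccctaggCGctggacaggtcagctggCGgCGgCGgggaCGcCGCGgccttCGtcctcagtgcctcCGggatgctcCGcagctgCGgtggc
Ndufb3: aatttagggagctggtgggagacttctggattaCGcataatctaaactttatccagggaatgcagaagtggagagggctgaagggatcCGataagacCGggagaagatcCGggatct
Cox5a: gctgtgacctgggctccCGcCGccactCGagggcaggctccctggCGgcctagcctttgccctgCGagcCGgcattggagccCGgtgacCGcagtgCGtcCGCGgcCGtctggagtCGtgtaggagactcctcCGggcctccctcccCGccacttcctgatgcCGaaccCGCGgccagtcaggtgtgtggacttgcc
Atp5g2: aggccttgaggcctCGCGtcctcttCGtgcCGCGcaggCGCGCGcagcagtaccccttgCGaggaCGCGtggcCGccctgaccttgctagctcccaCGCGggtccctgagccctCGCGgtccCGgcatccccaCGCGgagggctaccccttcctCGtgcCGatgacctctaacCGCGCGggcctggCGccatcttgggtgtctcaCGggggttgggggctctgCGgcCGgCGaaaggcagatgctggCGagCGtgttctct
Atp5h: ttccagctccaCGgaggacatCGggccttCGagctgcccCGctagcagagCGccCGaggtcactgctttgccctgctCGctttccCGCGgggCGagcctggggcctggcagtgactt

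These windows differ in base composition. The Atp5g2 peak held 31 CpG in 261 bp at 70.9% GC and the Cox5a peak 18 in 197 bp at 71.1% GC. The Ndufv2 peak held 17 CpG in 168 bp at 70.2% GC, and the Atp5h peak held 10 in 117 bp at 68.4% GC. The Ndufb3 and Ndufs7 peaks held 4 CpG in 117 bp and 6 in 124 bp, at 48.7% and 49.2% GC. Their midpoints lay 232 bp (Ndufs7), 234 bp (Ndufv2), 347 bp (Ndufb3), 276 bp (Cox5a), 243 bp (Atp5g2) and 207 bp (Atp5h) downstream of the main TSS, which is the TSS of the principal transcript. Of the NRF1, ETS, YY1, SP and NFY motifs spelled out further on, the Atp5g2 peak held NRF1 and YY1, the Cox5a peak held NFY and the other 4 peaks held none.

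Promoter peaks were found at 29 of the 85 members in replicate 1 (34.1%, 95% interval 24.2 to 45.2%) and at 18 in replicate 2 (21.2%, 13.1 to 31.4%). Over all nuclear protein-coding genes the shares were 20.3% and 14.7%. Both replicates had a peak at 15 members (17.6%, 10.2 to 27.4%), against 11.5% of all genes, and at least 1 replicate did at 32 members (37.6%, 27.4 to 48.8%), against 23.5%. Where a peak had to cover a TSS, replicate 2 had 4 members (4.71%), against 4.93% of all genes. A further 14 members had a peak in replicate 1 only, where the share of all genes was 8.77%, and 3 in replicate 2 only, where it was 3.22%. The remaining 53 members, most of the chain, had no promoter peak in either list. At all 15 members with a peak in both lists the peaks overlapped, and of the 21 peaks that replicate 2 had at members, 18 were contained in a wider one of replicate 1. At 28 of the 32 occupied members the closest coding TSS to the midpoint of at least 1 peak was the member's own.

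**Figure D1:**
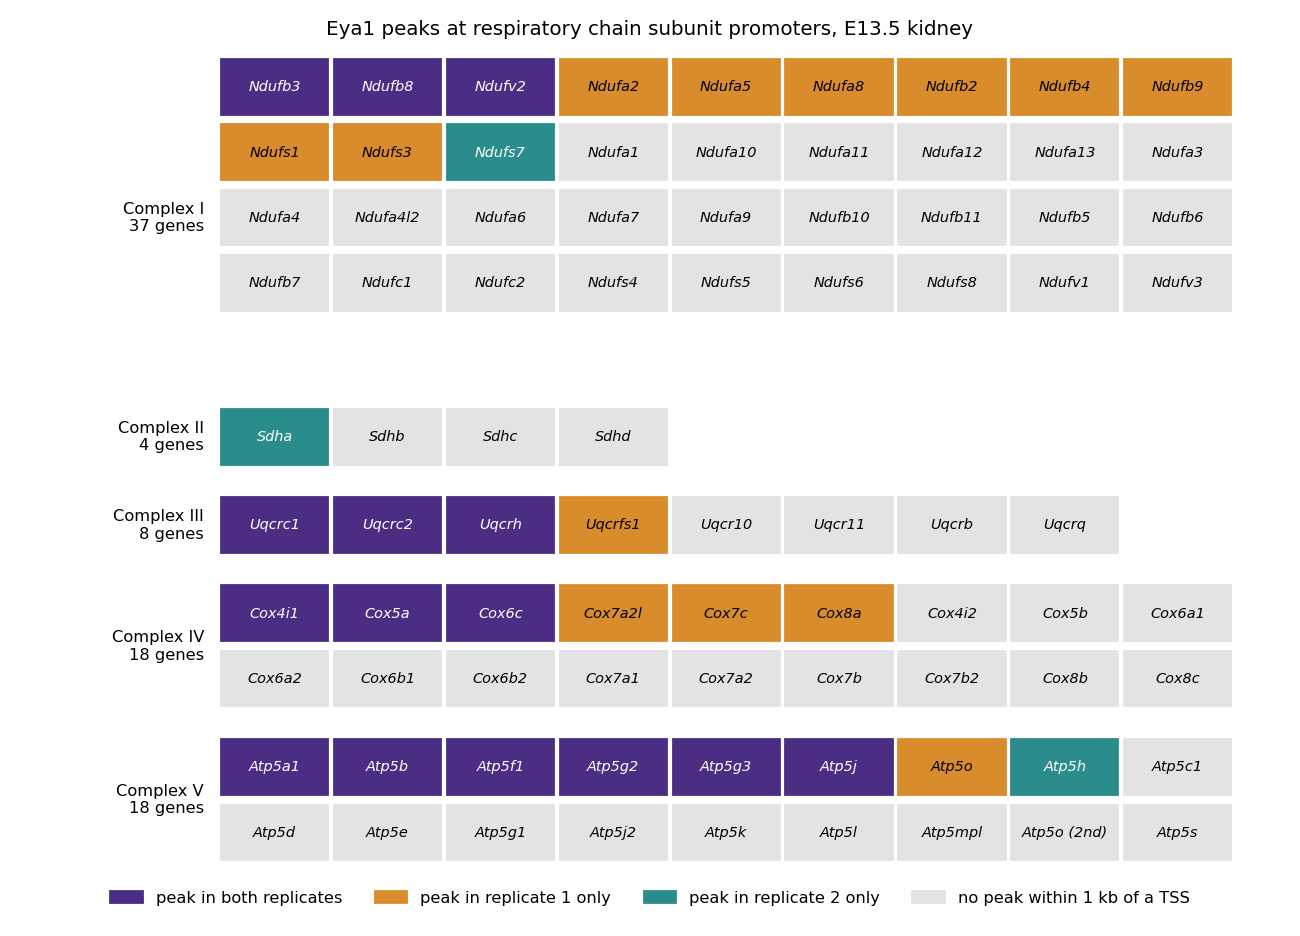
Each tile is 1 annotated gene, grouped by respiratory complex, and its colour shows whether an Eya1 peak lay within 1 kb of a TSS in both replicates, in 1 or in neither. Complex V holds 6 of the 15 genes with a peak in both replicates, and Sdha is the single occupied gene of complex II. The tile marked (2nd) is the second Atp5o entry, and 1 complex I gene has no tile.

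Member promoters were richer in CpG than those of other genes, and occupancy went with CpG content. The median CpG observed/expected ratio in 1 kb around the main TSS was 0.71 at members and 0.57 at the other coding genes, and 71 members lay in the upper 5 deciles of this ratio. Across the other genes, occupancy in either replicate climbed from 0.866% in the lowest decile to 63.1% in the highest. When the shares of the other genes in each decile were weighted by the members' own distribution, 28.6% were occupied in replicate 1, 20.0% in replicate 2, 15.5% in both and 33.1% in either. The members were thus 5.48, 1.16, 2.11 and 4.53 percentage points above CpG-matched promoters, and each interval of the members' shares held the matched value. Within the upper 5 deciles, 31 of 71 members had a peak (43.7%), against 42.1% of the other genes. In the lower 5 deciles, 1 of 14 members had one, which was Atp5f1. Matching on the GC share of the window in place of the CpG ratio left larger differences, of 14.2 points for either replicate and 7.23 for both. The GC-matched shares were 20.1% in replicate 1 and 23.4% in either, below the members' intervals, and 13.7% in replicate 2 and 10.4% in both, inside them.

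**Figure D2:**
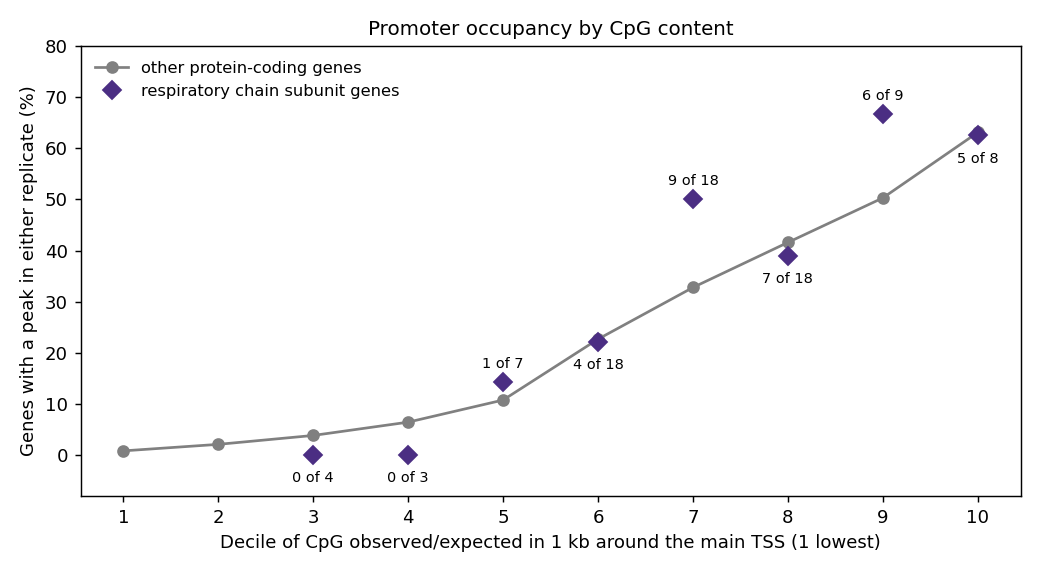
The horizontal axis gives deciles of the CpG observed/expected ratio around the main TSS and the vertical axis the percentage of genes with a peak in either replicate. The line is for other protein-coding genes and each diamond for the members of a decile, with their counts. The members follow the line, with the widest gaps in decile 7 (9 of 18) and decile 9 (6 of 9).

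Complex V, the ATP synthase, had peaks at 7 of 18 genes in each replicate (38.9%, 17.3 to 64.3%), against 29.8% at CpG-matched promoters in replicate 1 and 20.8% in replicate 2. In either list 8 were occupied (44.4%, 21.5 to 69.2%; 34.3%), and in both lists 6 (33.3%, 13.3 to 59.0%; 16.3%). The genes in both lists were the genes of both major subunits of the catalytic head, Atp5a1 (alpha) and Atp5b (beta), the membrane c-ring genes Atp5g2 and Atp5g3, and the peripheral stalk genes Atp5f1 (subunit b) and Atp5j. At Atp5b the replicate 1 peak was 1051 bp wide and covered 2 replicate 2 peaks of 386 and 188 bp. At Atp5a1 the widths were 808 and 434 bp. Atp5g2 had peaks of 889 and 261 bp, and Atp5g3 peaks of 1191 and 265 bp. The c-ring protein is also encoded by Atp5g1, whose promoter had none, the nearest peak being 9188 bp from a TSS. Atp5o, the gene of the stalk protein OSCP, had a 518-bp peak in replicate 1 only, and Atp5h a 117-bp peak in replicate 2 only. The second Atp5o entry, a single transcript starting elsewhere, had none. The central stalk genes Atp5c1, Atp5d and Atp5e had no promoter peak in either list.

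Several of these intervals also lay at another gene. Atp5j shares its promoter with Gabpa, whose TSS on the opposite strand lay 31 bp away, and both genes were within reach of the same 1905-bp replicate 1 peak (chr16:84834488-84836392) and of replicate 2 peaks of 147 and 220 bp. GABPA is the DNA-binding subunit of GABP, itself a regulator of respiratory genes. Atp5f1 lay 93 bp from Wdr77 on the other strand. Its peaks, of 570 and 256 bp, were centred 1122 and 1018 bp downstream of the main TSS, next to a second annotated TSS. At Atp5a1 the opposite gene was Haus1, 70 bp away.

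In complex I, the NADH dehydrogenase, most occupied genes were in 1 list. Replicate 1 had a peak at 12 of its 37 genes (32.4%, 18.0 to 49.8%; 28.6% at CpG-matched promoters) and replicate 2 at 4 (10.8%, 3.03 to 25.4%; 19.6%). Only Ndufb3, Ndufb8 and Ndufv2 were in both lists (8.11%, 1.70 to 21.9%; 15.1% at matched promoters), that is 3 of the 12 complex I genes of replicate 1 and 3 of the 4 of replicate 2. Of the genes in replicate 1, replicate 2 also had 85.7% in complex V, 50.0% in complex IV and 56.7% over all coding genes, and 83.3% of the member genes in replicate 2 were also in replicate 1, against 78.1% over all coding genes. Ndufv2, an iron-sulfur subunit of the NADH-oxidising module, had peaks of 799 and 168 bp. Ndufb3 and Ndufb8, accessory subunits of the membrane arm, had replicate 1 peaks of 1423 and 717 bp, the first with its midpoint closest to the TSS of Fam126b, and both had replicate 2 peaks of 117 bp, the lowest width in that list.

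Among the core subunits of complex I, which carry its redox centres and are conserved from bacteria, Ndufs1 had the widest complex I peak (1879 bp, chr1:63175803-63177681), in replicate 1 only, over a promoter whose opposite gene Eef1b2 starts 3 bp away. Ndufs3 had a replicate 1 peak of 1062 bp, whose midpoint was closest to the TSS of Kbtbd4, 38 bp from that of Ndufs3. Ndufs7 had a replicate 2 peak of 124 bp and none in replicate 1, where the nearest peak was 7305 bp away. The FMN-binding Ndufv1 and the iron-sulfur subunit Ndufs8 had no promoter peak. Accessory genes with a replicate 1 peak only were Ndufa2, Ndufa5, Ndufa8, Ndufb2, Ndufb4 and Ndufb9, with widths from 422 bp at Ndufb4 to 1335 bp at Ndufb9. The Ndufb9 peak was closest to the TSS of Tatdn1, 18 bp away on the other strand.

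In complex II, the succinate dehydrogenase that also serves the citric acid cycle, 1 of 4 genes was occupied in either list. This is 25.0%, against 32.1% at CpG-matched promoters and 23.5% of all genes. That gene had a peak in replicate 2 only, as did 4.37% of matched promoters and 3.22% of all genes. Any replicate 2 peak was present at 18.5% of matched promoters. Sdha, the gene of the flavoprotein subunit, had a 117-bp peak in replicate 2 (chr13:74350023-74350139) with its midpoint 199 bp downstream of the main TSS, and the opposite gene Ccdc127 started 29 bp away. The nearest replicate 1 peak was 6900 bp from a TSS of Sdha. Sdhb, the iron-sulfur subunit, and the membrane anchors Sdhc and Sdhd had no peak, and their nearest peaks in either list were 48937, 47836 and 12734 bp away. With 4 genes, the interval on the share (0.631 to 80.6%) spans most possible values.

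Complex III, the cytochrome bc1 complex, had peaks at 4 of 8 genes in replicate 1 (50.0%, 15.7 to 84.3%; 34.2% at CpG-matched promoters) and at 3 in replicate 2 (37.5%, 8.52 to 75.5%; 24.5%). The large core proteins Uqcrc1 and Uqcrc2 were occupied in both lists. Uqcrc1 had peaks of 894 and 136 bp. Uqcrc2 had a replicate 1 peak of 1136 bp over 2 replicate 2 peaks of 141 and 117 bp. Uqcrfs1, the gene of the Rieske iron-sulfur protein, had a 791-bp peak in replicate 1 only. The small subunits Uqcr10, Uqcr11, Uqcrb and Uqcrq had none. Uqcrh, the hinge protein gene, was counted through the widest peaks at any member, of 2548 bp in replicate 1 (chr4:116075345-116077892) and 1375 bp in replicate 2. These lay upstream, 274 and 365 bp from the nearest Uqcrh TSS, and the coding TSS closest to their midpoints was that of Lrrc41 on the opposite strand.

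Complex IV, the cytochrome c oxidase, was occupied at 6 of 18 genes in replicate 1 (33.3%, 13.3 to 59.0%; 25.2% at CpG-matched promoters) and at 3 in replicate 2 (16.7%, 3.58 to 41.4%; 18.4%). Both lists had peaks at Cox4i1 (1596 and 237 bp), Cox5a (872 and 197 bp) and Cox6c (874 and 269 bp), the genes of broadly expressed regulatory or structural subunits. Cox7a2l, Cox7c and Cox8a had replicate 1 peaks of 523, 775 and 553 bp. The Cox4i1 peaks lay over a promoter shared with Emc8, 101 bp away, whose TSS was the closest to both midpoints. Complex IV also holds most of the tissue-restricted isoforms. Cox4i2, Cox6a2, Cox6b2, Cox7a1, Cox7b2, Cox8b and Cox8c, which are known from lung, muscle or testis, had no promoter peak. Neither did Ndufa4l2, which was grouped by its name with complex I. Together these isoforms make 0 of 8 (interval up to 36.9%) where CpG-matched promoters would give 7.12%. Without these isoforms, 6 of the 11 complex IV genes were occupied in either list (54.5%, 23.4 to 83.3%; 43.1% at matched promoters).

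**Figure D3:**
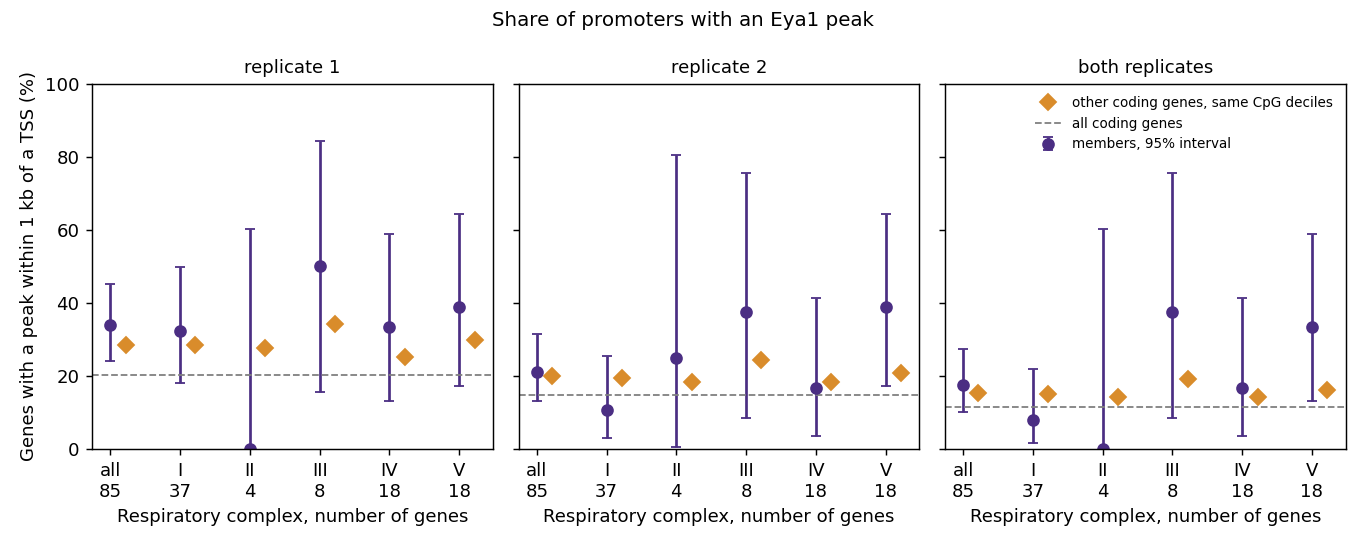
Panels show replicate 1, replicate 2 and both replicates, with the percentage of genes that have a peak within 1 kb of a TSS for all members and for each complex. Circles with bars are members with exact 95% intervals, diamonds are other coding genes weighted to the same CpG deciles and the dashed line is all coding genes. Every bar spans its diamond, although the circles of complex V sit at 38.9, 38.9 and 33.3%.

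Across the 5 complexes and 4 ways of counting (replicate 1, replicate 2, both and either), 0 of the 20 intervals left out the CpG-matched share. The 20 are not independent, because both and either are built from the single replicates. The intervals were wide, as for complex V in both lists (33.3%, 13.3 to 59.0%, against 16.3%). They therefore cannot show that the shares are alike. Differences between complexes were not tested.

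Most peak midpoints lay downstream of the main TSS. Of the 21 replicate 2 peaks at members, 20 had their midpoint downstream of the main TSS (95.2%), against 78.5% at other coding genes. The exception was Uqcrh. The median midpoint was 263 bp downstream at members and 257 bp at other genes. In replicate 1, 25 of 29 midpoints were downstream (86.2%, against 77.6%), with medians of 301 and 274 bp. A replicate 2 peak covered the main TSS in 0 of 21 cases, which allows a share of up to 16.1% (7.72% at other genes), and a replicate 1 peak did at 15 of 29 (51.7%, against 72.4%). By annotation, the midpoints of the replicate 2 peaks lay in introns for 12 peaks, in UTRs for 4, in coding exons for 2 and in noncoding exons for 3. The distance rule itself had little effect on which genes were counted. The farthest peaks that counted were 430 bp (Atp5b, replicate 2) and 365 bp (Uqcrh, replicate 2) from a TSS, and the nearest that did not were 2333 bp (Ndufb10) and 2508 bp (Ndufs6) away.

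**Figure D4:**
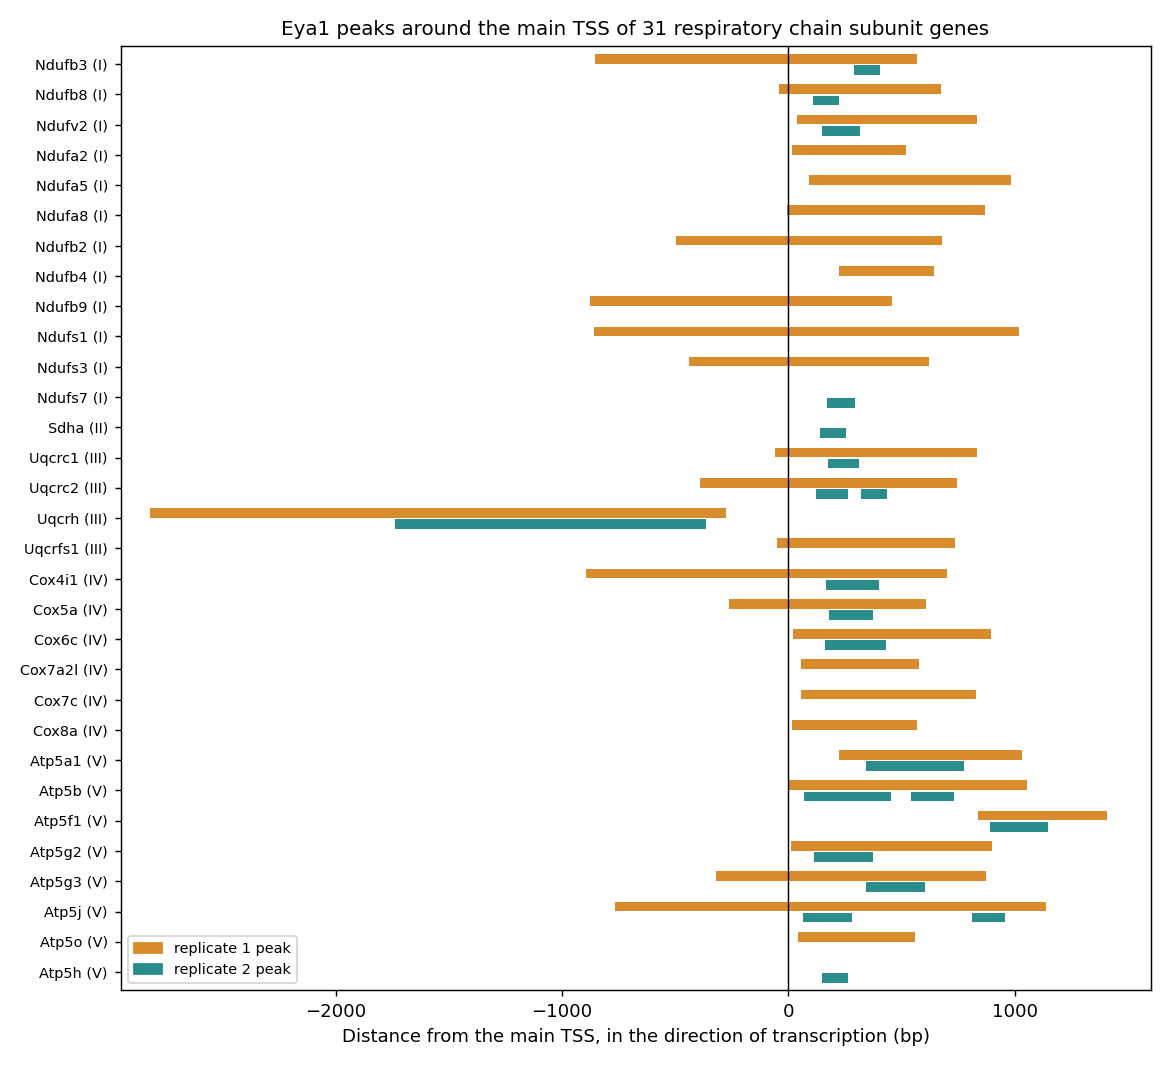
Bars show the replicate 1 and replicate 2 peaks of 31 of the 32 occupied genes against distance in bp from the main TSS, along the direction of transcription, with the complex in parentheses. At genes with peaks in both lists, the replicate 2 peaks sit inside the wider replicate 1 peak. The replicate 2 peaks lie downstream of the main TSS except at Uqcrh, and the genes with a single bar had a peak in 1 list.

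Peaks at members were narrower than those at other promoters in replicate 1. The median width was 878 bp (29 peaks, range 422 to 2548 bp), against 1103 bp at 3960 promoter peaks of other coding genes. In replicate 2 the medians were 188 bp (21 peaks, range 117 to 1375 bp) and 199.5 bp (3444 peaks). Among genes with peaks in both lists, the replicate 1 medians were 894 bp at members and 1197 bp at other genes, and the replicate 2 medians 208.5 and 216 bp. Among genes with a replicate 1 peak only, they were 783 and 976 bp. The 13 member peaks of replicate 1 at promoters with a gene on the opposite strand had a median of 1062 bp. The 16 at promoters without one had a median of 835.5 bp. Peaks at other genes were not split in this way, and widths were not matched for CpG. Replicate 1 medians by complex were 886.5 bp for complex I, 1015 bp for III, 823.5 bp for IV and 889 bp for V, so each was below the median of other genes. Replicate 2 medians were 120.5 bp for complex I (4 peaks), 117 bp for II (1) and 138.5 bp for III (4). They were 237 bp for IV (3) and 256 bp for V (9). Widths depend on the peak calling of each list and were compared within a list only. Whether depth or signal height at these promoters plays a part was not tested.

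**Figure D5:**
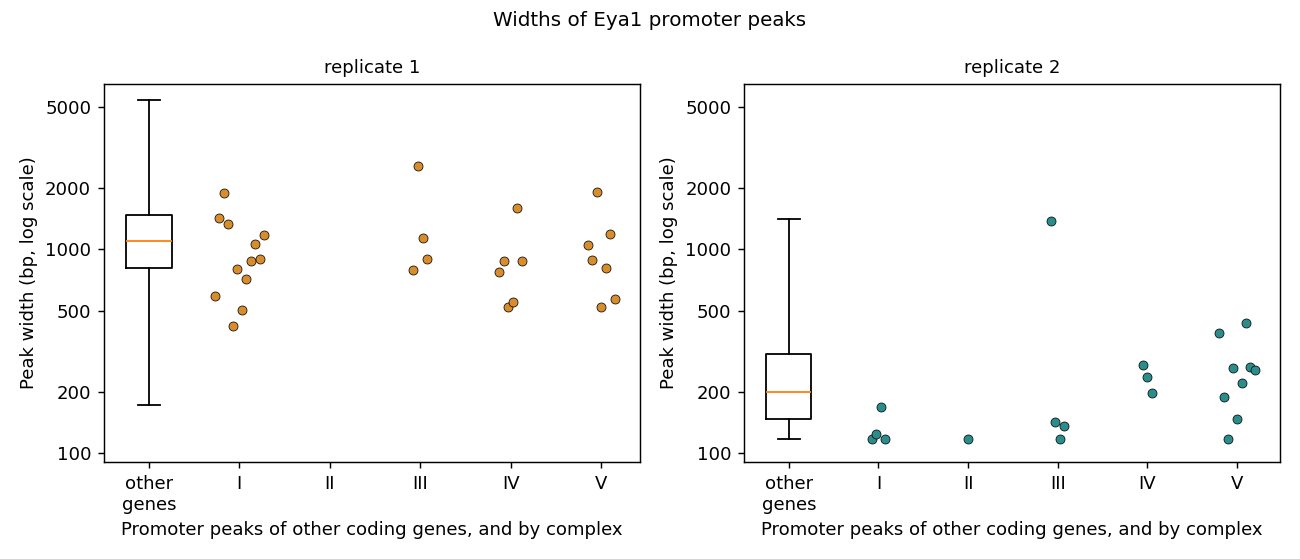
Each point is the width of 1 promoter peak in bp on a log axis, by respiratory complex and replicate, beside a box with the quartiles and range of promoter peaks at other coding genes. Most replicate 1 points lie below the 1103-bp median of the box. The highest points of complex III in both panels are the peaks at Uqcrh.

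Of the 85 members, 32 had another protein-coding gene starting on the opposite strand within 1 kb. Peaks in either list were found at 15 of these 32 (46.9%, 29.1 to 65.3%) and at 17 of the 53 others (32.1%, 19.9 to 46.3%). Over the remaining coding genes the corresponding shares were 45.7% and 20.3%, without matching for CpG. CpG-matched promoters, not split by an opposite-strand gene, gave 39.7% for the first group of members and 29.1% for the second. Both values lay inside the members' intervals. The members on chromosome X, Cox7b, Ndufa1 and Ndufb11, had no peak in either list (0 of 3, interval up to 70.8%), where 2.53% of all coding genes on X had one.

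Binding motifs known from respiratory gene promoters were searched as exact letters on both strands in the 300 bp from 250 bp upstream to 50 bp downstream of each main TSS. The motifs were GCGCANGCG for NRF1, CCGGAAG for ETS factors, AANATGGCG for YY1, GGGCGGG for SP factors and CCAAT for NFY. A match is a property of the sequence and not a measurement of binding. NRF1 matches were present in 15 members (17.6%), against 8.61% of all coding promoters and 12.5% at CpG-matched ones. YY1 matches were present in 6 (7.06%, against 3.14 and 4.65%). ETS matches were present in 15 members (17.6%, against 11.2 and 16.4%). The SP match was present in 24 members (28.2%), below the 33.5% of all coding promoters and the 47.8% at CpG-matched ones. NFY was close to both, at 36.5% against 38.6 and 38.6%.

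NRF1 was matched at 7 of the 32 members with a peak (21.9%) and at 8 of the 53 without (15.1%), and at the other coding genes in 15.6 and 6.41%. ETS was matched at 5 of the 32 (15.6%) and 10 of the 53 (18.9%), against 18.8 and 8.83% at the other genes. YY1 was matched at 4 of the 32 (12.5%) and 2 of the 53 (3.77%), against 7.42 and 1.81%, and SP at 11 (34.4%) and 13 (24.5%), against 53.2 and 27.5%. NFY was matched at 34.4 and 37.7%, against 37.0 and 39.0%. For NRF1, YY1 and SP the share was thus higher at genes with a peak among members and among other genes alike, whereas ETS was not higher at members with a peak. These shares were not matched for CpG, and genes with a peak were richer in it. The median CpG ratio was 0.77 with a peak and 0.67 without at members, and 0.80 and 0.41 at other genes. The member counts are small, and the differences were not tested. The 100 bp before the main TSS of Atp5h (chr11:115419963-115420062, - strand), which had a replicate 2 peak, and of Cox6a1 (chr5:115348982-115349081, - strand), Atp5mpl (chr12:111966978-111967077, - strand) and Ndufs5 (chr4:123718203-123718302, - strand), which had none, show the same NRF1 letters, given in capitals and read from the GRCm38.p6 reference.
Atp5h: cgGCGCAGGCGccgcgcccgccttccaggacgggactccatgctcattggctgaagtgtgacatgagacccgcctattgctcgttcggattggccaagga
Cox6a1: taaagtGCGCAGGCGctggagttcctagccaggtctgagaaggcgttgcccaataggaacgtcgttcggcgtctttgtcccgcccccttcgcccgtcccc
Atp5mpl: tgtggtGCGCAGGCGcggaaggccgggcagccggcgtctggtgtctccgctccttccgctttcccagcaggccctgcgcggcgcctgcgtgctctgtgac
Ndufs5: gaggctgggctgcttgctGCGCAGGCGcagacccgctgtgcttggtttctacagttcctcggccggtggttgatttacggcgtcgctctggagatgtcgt

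RE1, the element recognised by the repressor REST, was searched with up to 2 mismatches of its 17-bp consensus over whole peaks. It was matched in 3 of the 29 replicate 1 peaks at members, those at Ndufs1, Atp5o and Atp5g3, and in 0 of the 21 replicate 2 peaks (interval up to 16.1%). Among all promoter peaks of coding genes the shares were 14.7% in replicate 1 and 6.78% in replicate 2. Widths were not matched, and the replicate 1 medians were 878 bp at members and 1100 bp over all promoter peaks. In the 300-bp promoter windows RE1 was matched at 0 of the 32 members with a peak and 2 of the 53 without. At other coding genes the shares were 3.03% with a peak and 3.01% without.

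Other genes of the pathway were taken from fixed lists. Of 45 assembly factors, which build the complexes without being part of them, 11 had a peak in either list (24.4%, 12.9 to 39.5%; 35.9% at CpG-matched promoters). Those in both lists were Sdhaf2, Ttc19, Cox14, Cox20, Atpaf2 and Tmem70. Ndufaf3, Cox11, Coa5, Coa7 and Pet117 were in replicate 1 only. Cytochrome c (Cycs, a replicate 2 peak of 142 bp), the complex III subunit gene Cyc1 (a replicate 1 peak of 1348 bp) and the acyl carrier protein Ndufab1 (234 and 122 bp), which the symbol rule does not take, each had a peak in at least 1 list (3 of 3, 29.2 to 100%; 44.4% at matched promoters), and 1 of the 3 had one in both. Of 10 regulators of nuclear respiratory genes, 7 were occupied (70.0%, 34.8 to 93.3%; 41.4% at matched promoters). Nrf1, Gabpa, Gabpb1, Gabpb2, Yy1 and Pprc1 were in both lists and Sp1 in replicate 1 only, while the coactivators Ppargc1a and Ppargc1b and the nuclear receptor Esrra had no peak. The Gabpa peaks are those of Atp5j. Of 9 genes for transcription and replication of mitochondrial DNA, 3 had a peak (33.3%, 7.49 to 70.1%; 47.3% at matched promoters). Tfam, the packaging and transcription factor of mitochondrial DNA, had peaks of 867 and 118 bp, and the polymerase genes Polg and Polg2 had 1 list each.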

How the data were processed

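Peak lists of the Eya1 ChIP-seq replicates were used as deposited. The authors aligned reads to mm10 with Bowtie and ran MACS for peaks with input or with IgG as control, at P value cutoffs that varied, and state that peaks common to both calls were used. The submitters' processing notes name HISAT2. Which cutoff each list used was not stated. The lists give chromosome, start and end, printed here 1-based, with 0 peaks past a chromosome end of GRCm38.p6, the assembly of mm10. Groups and replicate numbers came from the sample titles.

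TSSs were those of all GENCODE M21 transcripts. The main TSS was that of the APPRIS principal or otherwise best supported transcript. The CpG ratio was taken in 1 kb around it and split into 10 bins over all coding genes, and the shares of other genes per bin were averaged with the members' weights. Peaks were called overlapping from 1 bp. Members and lists were chosen with earlier results of these data known. Named genes are those of complex II, those with peaks in both lists or in replicate 2 only, the tissue-restricted isoforms and the members on X, and genes without a peak where a complex or family is described. Members with a replicate 1 peak only were named after their values were seen. Sequences are from the GRCm38.p6 reference. The calculations were tested on simulated data. Python 3.11.15, numpy 2.4.6, scipy 1.17.1, pysam 0.24.0, samtools and matplotlib 3.10.9 were used. Intervals cover counting error only. Input and IgG were not analysed here. The values of 1 complex I gene are counted but not reported here.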

Additional observations from a re-analysis of the deposited data

How the results depend on the processing

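Of 83 alternative values for 13 results, 73 stayed within their limit, 10 moved and 0 reversed. The limit was 1.5-fold for a count and the 95% interval of the median for a width. For a difference in shares it was the reach of the 95% interval of the members' share, which is wide. Matching on GC share stayed within it, although the difference for either replicate went from 4.53 to 14.2 points. Shorter and longer distances to a TSS and the main TSS alone left the counts of occupied members at their reported values. Where the peak had to cover a TSS, 4 members remained for replicate 2 (4.71%, against 4.93% of all coding genes) and 4 for both replicates (4.71%, against 4.13%), so that the excess of replicate 2 over all genes was gone. With the narrower part of each list left out (below its median width), occupied members of the 85 numbered 9 in replicate 1, 10 in replicate 2, 4 in both and 15 in either. The shares of all coding genes were 11.1, 8.77, 5.26 and 14.6%. The excess of members over all genes was thus gone in replicate 1 and in both, and remained in replicate 2 and in either. Without 1 of the replicates, occupied members ranged from 18 to 29 in all, from 4 to 12 in complex I, from 0 to 1 in complex II, from 3 to 6 in complex IV and from 3 to 4 in complex III. The difference from CpG-matched promoters ranged from 1.16 to 5.48 points. It was 14.2 points for either replicate and 7.23 for both when matched on GC share, 8.90 points for either replicate and 4.74 for both with the CpG count, and 0.425 for both with a 300-bp window. Leaving out the second Atp5o entry was chosen after seeing the data. No paired analysis was possible because replicates of a single group were analysed.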
